A study of Rattus norvegicus with 7 samples.

Results

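The miRNAs of the imprinted Dlk1-Dio3 region were followed in the small RNA of the rat retina through the first 3 postnatal weeks. They were chosen by position alone, as the features annotated as miRNA in the window of chromosome 6 around Meg3 and Mirg (rat build Rnor_6.0). This gave 47 members of 571 miRNA features and 5491 features in all. The first was Mir770, which starts at 133682957, and the last was Mir3072, which ends at 133898905. The members were taken as annotated, and no measured value was used to choose them.

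Untreated Wistar WU rats gave retinas at 7 postnatal days: P1, P3, P5 and P7 in the first week, then P10, P15 and P21. Each library came from a pool of total RNA from 3 retinas, and 1 FPKM value per feature and age was given. FPKM are fragments per kilobase, with a correction for length and a scaling between libraries that are not given in the sources used here. There were therefore no replicates and no spread between animals, and no test between ages was possible. Lists of 7 values run in order of age, from P1 to P21. In pooled whole retinas, fewer cells of a type and less RNA per cell cannot be told apart.

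Genes of this region are imprinted, which means that they are read from the chromosome of 1 parent only. The protein-coding genes, among them Dlk1, Rtl1 and Dio3, are read from the paternal chromosome. The long noncoding RNAs with their snoRNAs and miRNAs are read from the maternal chromosome, and the miRNAs are well known from neurons and from the placenta. The miRNA hairpins lie in tandem, many of them arose by duplication, and they are thought to be cut from long shared transcripts. One group lies antisense to Rtl1, a gene derived from a retrotransposon, and the other is often named after its first miRNA, Mir379, and Mir410 near its end.

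By position, 12 members from Mir770 to Mir136 formed the Rtl1 side, Mir341 and Mir1188 stood between the groups, and 33 members from Mir379 to Mir3072 formed the Mir379 side. A gap of 124040 bases separated Mir1188 from Mir379, and the whole cluster spanned 215949 bases. In the RefSeq gene list of the newer assembly GRCr8, Mir770 lay within Meg3, and Mir431, Mir433, Mir127, Mir3543 and Mir136 lay within the span of Rtl1. The forward strand carried 38 members and the reverse strand 9.

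Mature sequences of 45 members were found in RefSeq (GRCr8). The deposited table gives 1 value per hairpin, so the 2 arms of a hairpin could not be told apart. The following are arms of the 6 forward-strand members among the 4 largest differences in each direction between P1 and P21, which are described first. The seed, bases 2 to 8, is in capitals.
rno-miR-494-3p: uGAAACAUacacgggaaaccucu
rno-miR-1193-3p: uAGGUCACccguuuuacuaucc
rno-miR-323-3p: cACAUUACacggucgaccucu
rno-miR-329-3p: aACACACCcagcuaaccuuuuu
rno-miR-495: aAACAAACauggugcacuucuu
rno-miR-136-3p: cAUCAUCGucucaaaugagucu
None of these 6 seeds is found on another arm of the 47 members. The seed of miR-1193-3p is also that of miR-370-5p, whose hairpin Mir370 lies in the same region but is not among the members. The seed of miR-329-3p is also that of miR-362-3p, which is outside the cluster.

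Across the 77 mature sequences of the members there were 74 different seeds, and 2 seeds were shared, by 5 members in all. The shared seeds sit on the 5p arms, and they are shown because members with a common seed can bind the same target sites.
rno-miR-494-5p: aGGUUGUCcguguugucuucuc
rno-miR-496-5p: aGGUUGUCcaugguguguuc
rno-miR-410-5p: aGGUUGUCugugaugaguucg
rno-miR-376b-5p: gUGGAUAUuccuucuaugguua
rno-miR-376c-5p: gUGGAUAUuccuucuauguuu
Mir494, Mir496 and Mir410 carry the first of these seeds on the 5p arm, and Mir376b and Mir376c carry the second.

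The summed level of the 47 members was 274911, 348039, 348481, 249539, 351401, 355050 and 369067 FPKM. The lowest sums were those of P7 and P1, and the other ages lay close together. Against P21, the log2 difference of the sum was -0.42 at P1 (95% counting interval -0.48 to -0.37) and -0.56 at P7 (-0.61 to -0.51), and between -0.08 and -0.06 at P3, P5, P10 and P15. These directions rested on the deposited scaling: with each library set to its miRNA total, the sum was higher than at P21 by 0.20 at P1 and by 0.087 at P7. The cluster held 1.46%, 2.19%, 1.79%, 1.35%, 1.43%, 1.71% and 1.27% of the miRNA FPKM. Of the estimated miRNA alignments it held 2.67%, 3.28%, 2.54%, 2.26%, 2.23%, 2.48% and 1.93%. By either measure the share was highest at P3 and lowest at P21. This order also depends on the other miRNAs in the total, in which the Mir124 loci were lowest at P1 and highest at P21. Mir124-1 had 391668 FPKM at P1 and 4500000 at P21, Mir124-2 had 240974 and 2840000, and Mir124-3 had 387612 and 4480000. The part of the Mir124 loci in the order of the shares, and in the scaling to the miRNA total, was not tested.

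**Figure D1:**
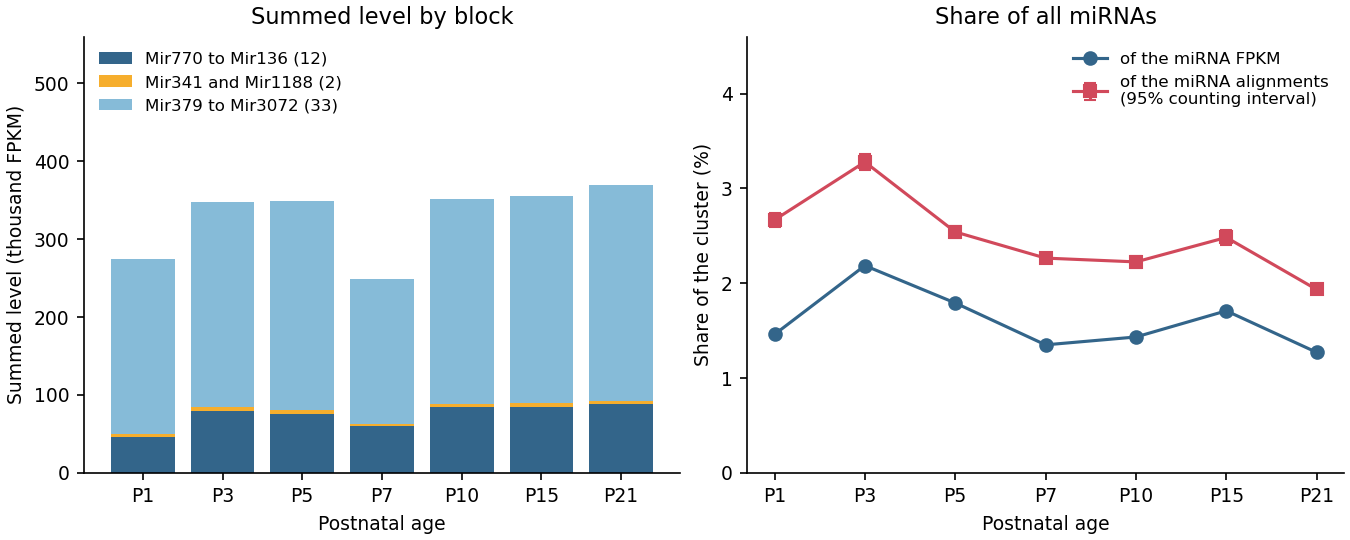
Left, summed FPKM of the cluster at each postnatal age, stacked by block of neighbouring members. Right, share of the cluster in all miRNA FPKM (circles) and in all estimated miRNA alignments (squares, bars are 95% counting intervals), in percent. In the deposited scaling the summed level was lowest at P7, with 249539 FPKM, and the share was highest at P3 and lowest at P21 by both measures.

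The number of alignments behind the values was estimated from the regular steps between low FPKM values. It came to between 300123 and 593866 per library from P1 to P15 and to 1355526 at P21, and the members held between 4758 and 19056 of them. Counting intervals were calculated from these numbers, and they leave out differences between animals and copies made by PCR. They also assume equal signal in each step, without which the total at P15 could lie between 127022 and 771757 and that at P21 between 446244 and 1780765. The P3 library stood apart in its makeup: snoRNAs held 34.4% of its alignments and between 2.08% and 9.45% of those of the other libraries. The miRNAs held 39.2% at P3 and between 58.3% and 74.5% elsewhere. The part of this difference in the share of the cluster at P3 was not tested.

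The largest difference within the cluster was that of Mir494. Its level was 46155, 26856, 25354, 8096, 10369, 4484 and 5741 FPKM. By FPKM it was the highest member of the cluster at P1, and the number 19 of 47 at P21. The difference of P1 from P21 on the log2(FPKM + 1) scale was 3.01 (95% counting interval 2.63 to 3.40), which is 8.04-fold, with 285 estimated alignments at P1 and 97.9 at P21. Mir494 (ENSRNOG00000036244.2) lies from 133864369 to 133864453 on the forward strand. As a share of the cluster's FPKM, which no scaling of whole libraries changes, Mir494 made up 16.8%, 7.72%, 7.28%, 3.24%, 2.95%, 1.26% and 1.56%. By estimated alignments Mir494 held 285 of the cluster's 4758 at P1 and 97.9 of 19056 at P21. By this measure it was not the highest member at P1, where Mir3595 had 542, rno-mir-3543-1 had 476 and Mir3543 had 455. The FPKM value of 1 alignment is higher at short loci, and the locus of Mir494 has 61 bases.

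Mir329, a miRNA known for its part in the activity-dependent growth of dendrites, went the other way. Its level was 3522, 7509, 9720, 9994, 12033, 11162 and 24076 FPKM. Every later age had a higher level than P1, and P21 had the highest. P1 differed from P21 by -2.77 (95% counting interval -3.30 to -2.28) on the log2 scale. Its hairpin from 133862168 to 133862264 ends 2104 bases before Mir494 begins, and its share of the cluster was 1.28%, 2.16%, 2.79%, 4.0%, 3.42%, 3.14% and 6.52%.

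Mir323 lies before Mir329 with only Mir758 between them, and its level was 4615, 9182, 12837, 13147, 9493, 10754 and 27636 FPKM. It too was lowest at P1 and highest at P21. The log2 difference of P1 from P21 was -2.58 (95% counting interval -3.12 to -2.08), and the share of the cluster was 1.68%, 2.64%, 3.68%, 5.27%, 2.70%, 3.03% and 7.49%. Mir323 ranked 18 of 47 at P1 and 5 of 47 at P21. The log2 ratio of Mir323 to Mir494 was -3.32, -1.55, -0.98, 0.70, -0.13, 1.26 and 2.27. It turned from below 0 to above 0 after P5, dipped below 0 at P10, and its change from P1 to P21 was 5.59 (95% counting interval 4.97 to 6.21). By contrast, the log2 ratio of Mir323 to Mir329 stayed between -0.34 and 0.40, and its change was -0.19 (95% counting interval -0.89 to 0.51).

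Mir495, a miRNA that has been linked to BDNF in neurons, was lowest in the youngest retina. Its level was 8220, 24808, 32220, 27777, 20847, 22059 and 29963 FPKM. The P1 value lay below the other 6, which themselves spread over less than 2-fold. P1 differed from P21 by -1.87 (95% counting interval -2.23 to -1.52), and from -1.99 to -0.86 over the scalings. Its share of the cluster was 2.99%, 7.13%, 9.25%, 11.1%, 5.93%, 6.21% and 8.12%, and Mir495 was the leading member by FPKM at P5 and P7.

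Mir136, from the Rtl1 side, had 1841, 3857, 4466, 5307, 10725, 4922 and 10585 FPKM. P10 and P21 were alike and P15 was less than 50% of either. P1 was lowest and differed from P21 by -2.52 (95% counting interval -2.89 to -2.17), or 5.75-fold. These values rested on 72 estimated alignments at P1 and 1143 at P21.

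**Figure D2:**
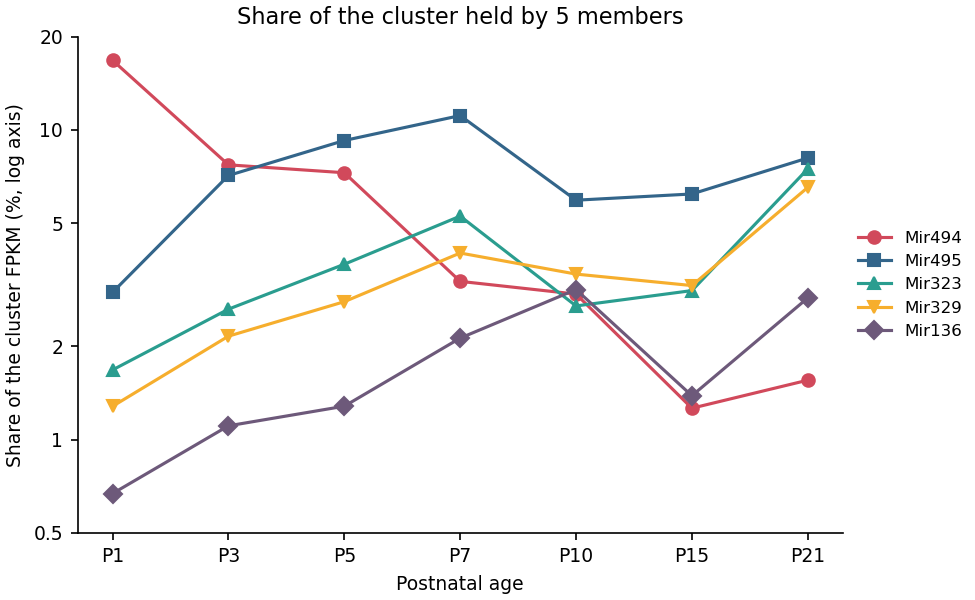
Share of the summed cluster FPKM, in percent on a log axis, held by Mir494, Mir495, Mir323, Mir329 and Mir136 at each postnatal age; each point is 1 pooled library. Mir494 went from 16.8% at P1 to 1.56% at P21, while Mir323 went from 1.68% to 7.49% and Mir329 from 1.28% to 6.52%. These shares are by FPKM. By estimated alignments Mir494 held 285 of the cluster's 4758 at P1 and 97.9 of 19056 at P21.

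Mir1193, Mir299b and Mir3579 were also higher at P1. Mir1193, which begins 253 bases after Mir494, had 2445, 1773, 2043, 733, 1116, 1077 and 598 FPKM, a log2 difference of 2.03 (95% counting interval 1.30 to 2.80). Mir299b had 2240, 1711, 1255, 731, 1143, 1064 and 601 FPKM, a difference of 1.90 (95% counting interval 1.41 to 2.40). Both had their highest value at P1 and their lowest at P21. Mir3579 had 4270, 3092, 1362, 1081, 5253, 5779 and 1731 FPKM, a difference of 1.30 (95% counting interval 0.82 to 1.78), but it did not follow age in 1 direction: P10 and P15 were higher than P1, and P5 and P7 were lowest.

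The directions of these members between P1 and P21 did not depend on how the libraries were scaled. Over 5 scalings the log2 difference of P1 from P21 ranged from 2.89 to 3.99 for Mir494, from 1.91 to 3.00 for Mir1193, from 1.77 to 2.88 for Mir299b and from 1.18 to 2.29 for Mir3579. For those lower at P1 it ranged from -2.89 to -1.77 for Mir329, from -2.70 to -1.58 for Mir323 and from -2.64 to -1.52 for Mir136. These 7 were the members that were at least 2-fold apart in 1 direction under each of the 5, 4 higher and 3 lower, against 30.6% and 17.9% of all miRNA features. Of them, 6 lie within the 5524 bases from Mir299b to Mir1193, which hold 7 members. Of these 6, 4 were higher and 2 lower at P1, and Mir758 was the remaining member of the stretch, with a difference of -0.65 (95% counting interval -1.72 to 0.32). This stretch was picked out after its values were seen. The direction of 23 of the 47 members turned with the scaling, while 16 were higher and 8 lower at P1 under each. The matching shares of all miRNA features are not given here, so these counts cannot be set against miRNAs in general.

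Counted over the whole cluster with the deposited values, 5 of 47 members were at least 2-fold higher at P1 than at P21, where the same was true of 32.9% of all miRNA features, and 8 were at least 2-fold lower, against 31.5%. Between these limits lay 34 members, while 64.4% of all miRNA features were outside them. With a counting interval that left out 0, 4 members were 2-fold higher and 8 lower, against 29.4% and 24.7%. With each library set to its miRNA total the split was 11 higher and 4 lower, and that of all miRNA features 43.6% and 23.6%. In the deposited values Mir1188 was the one 2-fold higher without such an interval, with 4 estimated alignments at P1 and 5.20 at P21. Of the 41 members that averaged 20 or more estimated alignments, 30 were within 2-fold, while 64.3% of all such miRNAs were not. At the ages in between, the members at least 2-fold higher and lower than at P21 numbered 7 and 5 at P3 (28.7% and 29.2% of all miRNA features), 7 and 6 at P5 (31.7% and 27.3%), 3 and 9 at P7 (27.1% and 34.0%) and 5 and 3 at P10 (24.9% and 25.7%).

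**Figure D3:**
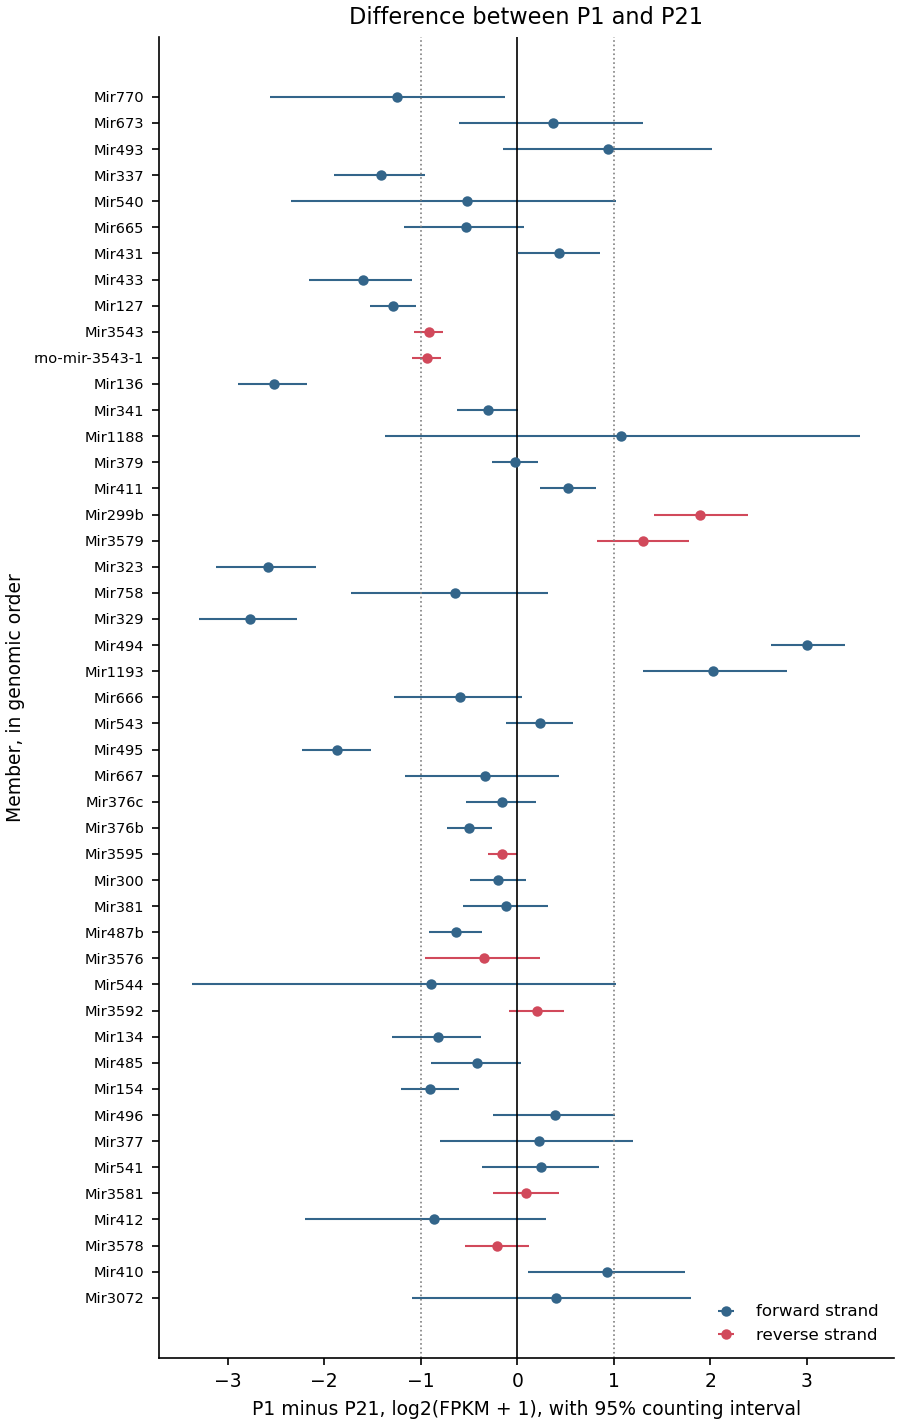
Difference of log2(FPKM + 1) between P1 and P21 for each of the 47 members in genomic order, with 95% counting intervals; positive values are higher at P1, dotted lines mark 2-fold, and colours give the annotated strand. Mir494, at 3.01, and Mir329, at -2.77, mark the ends of the range and are neighbours, and 34 members lie between the dotted lines.

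As deposited, 9 of the 12 members of the Rtl1 side were lower at P1 than at P21. So were 20 of the 33 on the Mir379 side and 283 of all 571 miRNA features. Over the 5 scalings described above, 5 of the 12 members of the Rtl1 side stayed lower at P1, 3 stayed higher and 4 turned. The matching shares of all miRNA features over the scalings are not given here. The summed level of the 12 was 46025, 79131, 75473, 60305, 84571, 84480 and 88473 FPKM. The log2 difference of this sum at P1 was -0.94 (95% counting interval -1.05 to -0.84), while that of the 33 members of the Mir379 side was -0.30 (-0.37 to -0.23). Without Mir494 the Mir379 side differed by -0.60 (-0.67 to -0.53). Per 1000000 miRNA alignments the Rtl1 side stayed slightly lower at P1, with 7989 against 8444 at P21, while the Mir379 side turned, with 18002 against 10485. The share of the Rtl1 side within the cluster was thus smaller at P1 than at P21 under any scaling of whole libraries.

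Mir127, the best known of the miRNAs that pair with the Rtl1 transcript, had 2730, 5329, 3509, 2615, 5182, 5735 and 6652 FPKM. P1 and P7 were the low ages. The difference of P1 from P21 was -1.28 (95% counting interval -1.52 to -1.05), and it stayed below 0 under each scaling. Mir433, also antisense to Rtl1, had 2279, 4700, 4466, 3863, 6526, 4956 and 6927 FPKM, with a difference of -1.60 (95% counting interval -2.15 to -1.09). Its nearest neighbour Mir431, 795 bases away and known from the regrowth of axons, had 3849, 4477, 4238, 2161, 2896, 2797 and 2844 FPKM, with a difference of 0.44 (95% counting interval 0.01 to 0.86). The log2 ratio of Mir433 to Mir431 therefore went from -0.76 at P1 to 1.28 at P21, a change of 2.04 (95% counting interval 1.39 to 2.69).

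Of the other members of this side, P1 differed from P21 in Mir337 by -1.42 (-1.90 to -0.96) and in Mir770 by -1.25 (-2.56 to -0.13) on the log2 scale. Mir770 rested on 8 estimated alignments at P1 and 52.5 at P21. Mir493 differed by 0.94 (-0.14 to 2.02), Mir673 by 0.37 (-0.60 to 1.30) and Mir665 by -0.53 (-1.17 to 0.07), and the intervals of these 3 held 0. Mir673 and Mir665 had their highest values at P7, with 3643 and 10127 FPKM, the age at which 19 members were lowest. Mir540 was listed at 0 at P15 and had between 508 and 1412 FPKM elsewhere. A value of 0 can be a failed estimate, so no fold is given, although Mir540 enters the counts of members that were lower or lowest at P15.

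The member with the highest mean level was Mir376b, with 23820, 28731, 29945, 23267, 34240, 42951 and 33579 FPKM. By FPKM it led the cluster at P10, P15 and P21, and P1 and P7 were its lowest ages. P1 differed from P21 by -0.50 (95% counting interval -0.73 to -0.27). The miR-376 miRNAs are known to be edited by ADAR enzymes in brain. Mir376c, 572 bases before it, had 8057, 11978, 13826, 11114, 12202, 11126 and 9016 FPKM and a difference of -0.16 (95% counting interval -0.53 to 0.20). Their 3p arms are shown because they are alike but do not share a seed.
rno-miR-376b-3p: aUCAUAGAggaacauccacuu
rno-miR-376c-3p: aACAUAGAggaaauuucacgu
rno-miR-376a-3p: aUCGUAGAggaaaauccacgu
The arms of miR-376b and miR-376c are identical at 16 of 21 bases, and miR-376a, whose forward hairpin was not analysed here, matches them at 18 and 17 of 21. The log2 ratio of Mir376b to Mir376c lay between 1.07 and 1.95 at the 7 ages.

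Mir154 and Mir487b followed among the forward-strand members of high level. Mir154 had 16077, 21705, 22884, 12691, 23754, 20183 and 30018 FPKM, with a difference of -0.90 (95% counting interval -1.21 to -0.60). Mir487b had 11293, 14010, 20722, 12018, 16188, 19130 and 17548 FPKM, with a difference of -0.64 (95% counting interval -0.92 to -0.36). In both, P1 and P7 were the lowest ages and P21 or P5 the highest. Their 3p arms begin alike, but the seeds differ.
rno-miR-154-3p: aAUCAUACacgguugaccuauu
rno-miR-487b-3p: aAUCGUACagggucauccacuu

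Mir379 and Mir411 open the Mir379 side, 1059 bases apart. Mir379 had 9351, 7480, 6061, 4764, 8946, 11808 and 9485 FPKM, a difference of -0.02 (95% counting interval -0.26 to 0.21). Mir411 had 15526, 9116, 10615, 5419, 12683, 15136 and 10792 FPKM, a difference of 0.52 (95% counting interval 0.23 to 0.81). Both were lowest at P7, and the highest ages were P15 for Mir379 and P1 for Mir411. Mir410, near the other end, had 2794, 2853, 1097, 832, 4703, 3353 and 1468 FPKM, a difference of 0.93 (95% counting interval 0.11 to 1.74) that rested on 27 estimated alignments at P1 and 39.2 at P21. Mir410 was also lowest at P7 and was highest at P10.

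Mir134, which limits the size of dendritic spines through Limk1, had 3222, 5729, 5864, 2799, 4949, 3989 and 5705 FPKM. P5 was highest and P7 lowest, and P1 differed from P21 by -0.82 (95% counting interval -1.30 to -0.37). Mir485, which acts on the synaptic vesicle protein SV2A, had 3018, 4037, 2474, 1867, 2884, 2147 and 4033 FPKM and a difference of -0.42 (95% counting interval -0.89 to 0.04). The 2 hairpins are 665 bases apart, and both had high values at P3 and P21 and low ones at P7.

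As deposited, Mir381 varied least of all members, with 5045, 5378, 5359, 3740, 4829, 3510 and 5461 FPKM. Its highest value was 1.56 times its lowest, and P1 differed from P21 by -0.11 (95% counting interval -0.56 to 0.32). Mir543 had 6479, 9916, 8583, 7122, 5739, 6618 and 5510 FPKM and a difference of 0.23 (95% counting interval -0.12 to 0.58). It begins its course close to its neighbour Mir495 and parts from it: the log2 ratio of Mir543 to Mir495 was -0.34 at P1 and between -2.44 and -1.32 at the later ages. Mir541 had 3342, 8198, 8119, 3663, 4455, 1580 and 2812 FPKM. P3 and P5 were more than 2 times any other age except P10, and the difference of P1 from P21 was 0.25 (95% counting interval -0.37 to 0.85). Among these members of the Mir379 side, Mir411, Mir410, Mir543 and Mir541 stayed higher at P1 under each of the 5 scalings. The direction turned with the scaling for Mir376b, Mir376c, Mir154, Mir487b, Mir379, Mir134, Mir485 and Mir381. Mir300, a hairpin next to Mir381, was highest at P10 with 17456 FPKM and lay between 8342 and 12407 FPKM otherwise.

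The 9 members annotated on the reverse strand were looked up in RefSeq by symbol. Each symbol overlaps a forward-strand hairpin that is not among the members. Mir3543 and rno-mir-3543-1 have 1 symbol there and so the same partner, Mir434. These 2 loci lie 755 bases apart in the build used here, so an overlap of each with Mir434 was not shown. Whether strand was used in the counting is not given in the sources used here, so the reads of the 2 strands could not be told apart. For the pair with the most alignments, the mature sequences are complementary over 22 bases.
rno-miR-3543: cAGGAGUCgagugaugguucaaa
rno-miR-434-3p: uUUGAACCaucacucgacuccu
The 2 loci of the first, Mir3543 and rno-mir-3543-1, led the cluster by estimated alignments, with means of 1071 and 1073. Mir3543 had 16327, 30347, 28657, 18064, 30863, 39279 and 30784 FPKM. The second locus had 8514, 15172, 13549, 9548, 15348, 16968 and 16301 FPKM. Their log2 ratio stayed between 0.92 and 1.21, and P1 differed from P21 by -0.91 (-1.07 to -0.77) and -0.94 (-1.09 to -0.79), values that turned to 0.09 and 0.06 per miRNA alignment. The loci have 1 symbol in RefSeq, and how reads that match both were divided is not known, so their reads cannot be told apart and both enter the sums.

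Mir3595 overlaps the hairpin of miR-376a, and the mature sequences are complementary over 19 bases. It had 7385, 12310, 9175, 6634, 9943, 13731 and 8210 FPKM, a difference of -0.15 (95% counting interval -0.30 to -0.01). Mir3595 ranked 3 of 47 by alignments and 13 by FPKM, as its locus of 225 bases is the longest. The FPKM value of 1 alignment fell more steeply than in proportion to locus length. At P1, 542 estimated alignments gave 7385 FPKM at Mir3595, and 285 gave 46155 FPKM at Mir494 with its 61 bases. Mir127, with a locus of 212 bases against 97 annotated, ranked 4 by alignments and 25 by FPKM. Mir299b and Mir3579, described above, overlap the hairpins of Mir299 and Mir380. The remaining reverse-strand members Mir3576, Mir3592, Mir3581 and Mir3578 overlap the hairpins of Mir539, Mir382, Mir409 and Mir369, and their differences of P1 from P21 lay between -0.35 and 0.20. The 9 together had 57049, 85592, 72731, 47630, 86713, 100139 and 76369 FPKM. The 38 forward-strand members had 217861, 262447, 275750, 201909, 264688, 254912 and 292698 FPKM. The reverse-strand sum was highest at P15 and the forward-strand sum at P21.

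By age of the highest value, 11 members peaked at P15, against 6.48% of all miRNA features, 9 at P10 (11.4%), 8 at P21 (29.8%) and 7 at P3 (8.58%). Another 4 each peaked at P1, P5 and P7, against 22.1%, 7.18% and 14.5%. By age of the lowest value, 19 members were lowest at P7 (21.0%), 12 at P1 (20.8%), 6 at P15 (22.1%, with Mir540 among the 6), 6 at P21 (14.7%), 2 at P5 (6.48%), 1 at P3 (8.93%) and 1 at P10 (5.95%). The counts at P7 and P15 depended on the scaling, as 3 members were lowest at P7 with TMM scaling and 12 with the miRNA total, and 19 and 6 were highest at P15. The shares of all miRNA features under these 2 scalings are not given here. Both P7 and P15 are ages at which the medians of all miRNA features were also low against P21, as given further on.

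From 1 age to the next, 35 of 47 members were higher at P3 than at P1, against 45.7% of all miRNA features, and the median log2 difference was 0.43 against -0.08. Between P5 and P7, 36 members were lower, against 59.7%. Between P7 and P10, 38 were higher, against 52.0%, with a median of 0.61 against 0.09. In the last interval, from P15 to P21, 28 members were lower, against 35.6% of all miRNA features, and the medians were -0.12 and 0.37. With TMM scaling the members' own steps around P7 did not remain, though those of all miRNA features shifted alike. There 21 members were lower at P7 than at P5, against 36.1% of all miRNA features, with medians of 0.05 and 0.24. Between P7 and P10, 21 members were higher, against 34.5%, with medians of -0.07 and -0.57. Under the same scaling 35 were higher at P3 than at P1, against 49.4%, and 30 were lower at P21 than at P15, against 48.3%.

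**Figure D4:**
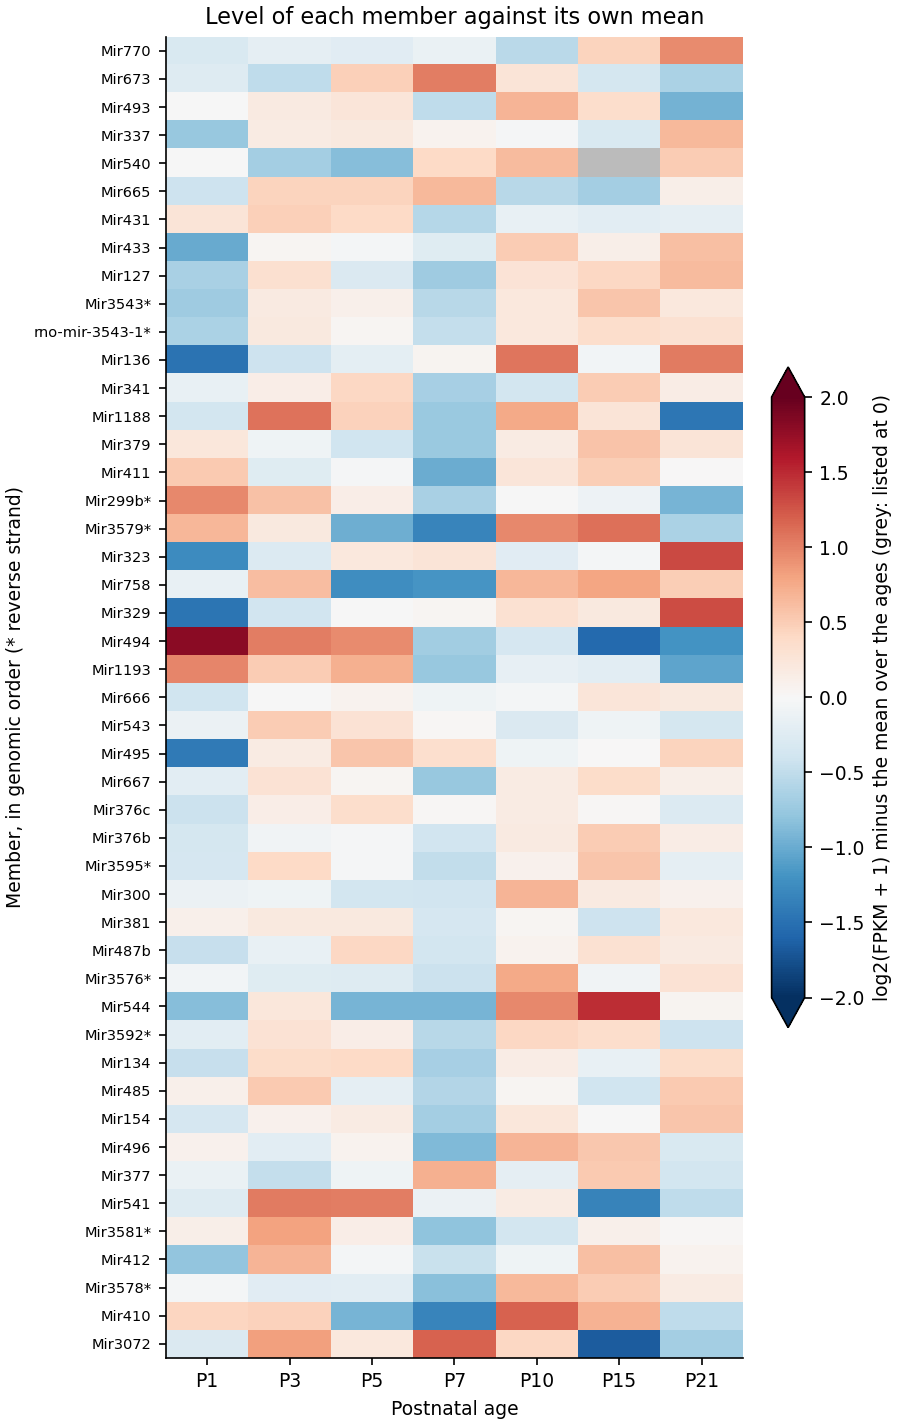
Level of each member (rows, in genomic order; asterisks mark the reverse strand) at each postnatal age (columns) as log2(FPKM + 1) minus the member's own mean over the ages; colours are limited to 2 in either direction, and grey marks the value listed at 0. The column of P7 is blue for most rows, 19 of which have their lowest value there as deposited and 3 with TMM scaling, and Mir494 and Mir1193 run from red to blue where Mir323 and Mir329 run from blue to red.

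By its share of the miRNAs the cluster stood highest at P3, as given above. By the median difference from P21, the members stood furthest above all miRNA features at P15. The median log2 difference from P21 was 0.12 over the members and -0.37 over all miRNA features there, 0.50 apart. A scaling of whole libraries shifts both medians alike and so leaves this gap in place. Restricted to at least 20 alignments it was 0.44. At P15 5 members were at least 2-fold higher than at P21, against 11.0% of all miRNA features, and 4 were at least 2-fold lower, against 32.4%, 1 of them Mir540 with its value of 0. At P1 the medians were -0.30 over the members and 0.05 over all miRNA features, but the gap was -0.01 among those with at least 20 alignments. At P3, P5, P7 and P10 the median of the members was 0.00, -0.07, -0.58 and 0.05, and that of all miRNA features -0.02, -0.02, -0.39 and 0.01.

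The members also spread less than miRNAs in general. The middle 50% of the log2 differences of P1 from P21 spanned 1.19 among the members and 3.04 among all miRNA features, and 1.07 and 2.98 among those with at least 20 alignments. At P15 the spans were 1.02 and 1.56. The highest value was at least 2 times the lowest in 39 of 47 members, against 95.8% of all miRNA features, and at least 4 times in 13, against 69.4%, with the 0 of Mir540 counted as past both. For the 41 members with at least 20 alignments these counts were 33 and 9, against 93.3% and 56.8%. The median of highest over lowest was 2.72 over the members and 5.76 over all miRNA features, and 2.51 and 4.70 with at least 20 alignments. Scaling of whole libraries does not change the spans at a given age.

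**Figure D5:**
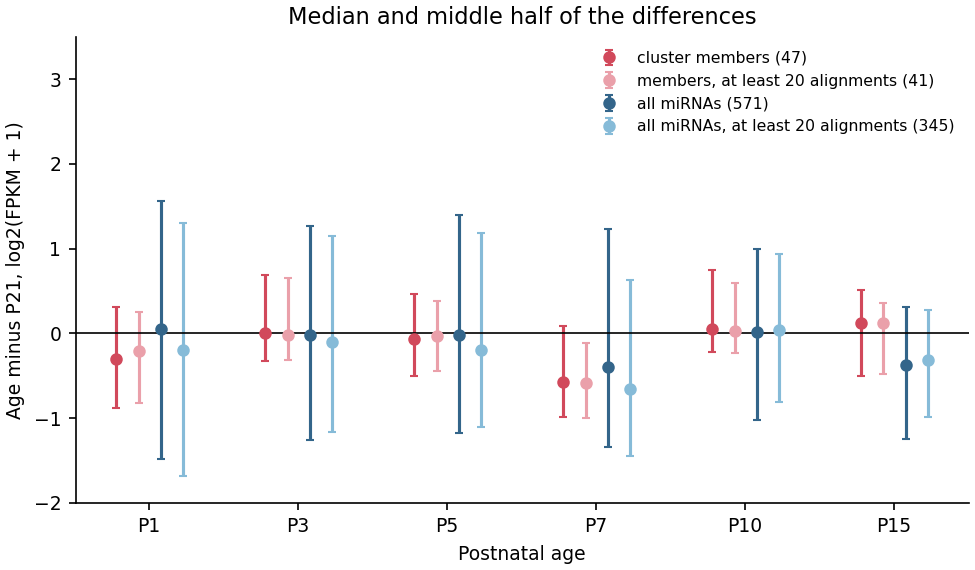
Median (points) and middle 50% (bars) of the difference of log2(FPKM + 1) from P21 at each younger age, for the members, for all miRNA features, and for those of either set averaging 20 or more estimated alignments. The bars of the members are shorter at every age, and at P15 their median lies above those of all miRNA features.

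Neighbours were nearly as unlike as any pair of members. The absolute difference between the P1-to-P21 values of adjacent members had a median of 0.86 over 46 pairs of neighbours, and 0.97 over all 1081 pairs of members. Mir329 and Mir494 were the most unlike neighbours, 5.78 apart, followed by Mir3579 and Mir323, 3.88 apart. Mir3543 and its copy, Mir540 and Mir665, and Mir377 and Mir541 were each within 0.03.

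Fewer than 20 estimated alignments on average lay behind 6 members, Mir770, Mir540, Mir1188, Mir544, Mir412 and Mir3072. Their mean levels ran from 340 to 1192 FPKM, and the intervals of their P1-to-P21 differences held 0 except that of Mir770. Mir3072 was highest at P7 with 1089 FPKM and lowest at P15 with 150.3 FPKM. Mir544 was highest at P15 with 2713 FPKM and had 3 estimated alignments at P1. The other members not named above, Mir341, Mir666, Mir667, Mir496 and Mir377, had differences between -0.59 and 0.39 with intervals that held 0.

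The same window held 39 snoRNA features, all annotated as SNORD113, and 3 lincRNA loci, none of them used in the choice of members. The summed snoRNA level was 40807, 818172, 227030, 228119, 193887, 123597 and 208793 FPKM. P3 stood far above the others and P1 far below. Against P21 the log2 difference was -2.36 at P1 (95% counting interval -2.49 to -2.22), where that of the miRNA sum was -0.42. Of the 39 features, 28 were highest at P3, as were 51.7% of the 377 snoRNAs elsewhere, and 32 were lowest at P1, which is 82.1%, against 61.8% of those elsewhere. For each estimated alignment of a member there were 0.104 alignments of these snoRNAs at P1, 1.35 at P3, and from 0.213 to 0.605 elsewhere. The summed level of the 377 other snoRNAs was 3550643 FPKM at P1, 17361724 at P3 and 3479865 at P21. Their FPKM sum was thus also high at P3 but not low at P1, although 61.8% of the single features were lowest there. Per 1000000 miRNA alignments their sum too was lowest at P1, with 32255 against 54778 at P21. The lincRNA loci reached 341 FPKM at P1 and 1294 at P21, on 24 and 295 estimated alignments.

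The mir-17-92 and mir-322 clusters, the other clusters measured here, differed more between P1 and P21. The mir-17-92 cluster, which drives proliferation, had 2751576, 2024136, 1963410, 894071, 1150180, 625862 and 482726 FPKM over 6 features. The mir-322 cluster had 56086, 74841, 30471, 9680, 16498, 9138 and 5514 FPKM over 5 features. Their log2 differences of P1 from P21 were 2.51 and 3.35, and both were above 0 at every younger age, while that of the imprinted cluster was -0.42. The nearest miRNAs outside the window were Mir345, which starts at 132748968, and Mir1247, which starts at 134626097. Mir345 had between 24272 and 39419 FPKM with its lowest value at P7, and Mir1247 ran from 6770 FPKM at P1 over 16521 at P7 to 1164 at P15 and 2500 at P21.

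Markers of cell types differed between the libraries as well. Mir183, Mir96 and the 3 copies of Mir124, which mark photoreceptors and neurons, summed to 1137717, 3273816, 6288004, 5892918, 8445632, 9271822 and 12357842 FPKM. This course was that of Mir124, whereas Mir183 and Mir96 were highest at P10, with 733716 and 281916 FPKM, and had 448779 and 89063 at P21. Mir204 and Mir211, taken here as markers of the pigment epithelium, summed to between 87709 FPKM at P1 and 483914 at P21. Their courses were unlike: Mir204 went from 85619 FPKM at P1 to 250320 at P21, and Mir211 from 2090 to 233594. The 3 skeletal muscle markers found, Mir206, Mir133b and Mir1b, summed to 165251 FPKM at P3 and 100176 at P5, and elsewhere from 4840 to 11665, with none listed at 0. The 4 blood markers Mir451a, Mir144, Mir223 and Mir142 lay between 5766 FPKM at P3 and 20243 at P1. The 3 endothelial and mural markers Mir126a, Mir143 and Mir145 lay between 21511 FPKM at P7 and 132175 at P21. Within this sum Mir126a was highest at P1, with 42554 FPKM, and had 33548 at P21. Mir145 went from 28388 at P1 to 90032 at P21, and Mir143 from 6414 to 8595. P7, where the cluster sum was lowest as deposited, was thus also the lowest age of the endothelial and mural markers, and P3, where its share was highest, was the highest age of the muscle markers. Their part in the values of the cluster was not tested.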

How the data were processed

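The authors pooled total RNA of 3 retinas per age, sequenced the pools 2 times on the Ion Torrent PGM, trimmed the reads, and mapped them to Ensembl noncoding RNAs. Transcript levels were estimated with Cufflinks, merged with Cuffmerge and compared with Cuffdiff, for which the submitters' processing notes give version 2.2.1.3 and the build Rnor_6.0. The deposited values are FPKM, 1 per feature and age. The normalization between libraries and the use of strand are not given in the sources used here. The columns of the authors' own comparisons (fold changes, test statistics, p-values and q-values) were not used, and some items of the table are not reported here.

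The members are the miRNA features of the chromosome 6 window. The members, lists and comparisons were chosen with earlier results of these data known. The 8 members with the highest mean FPKM, the 4 largest differences in each direction between P1 and P21 among those averaging 20 or more alignments, and 17 of 22 names known from neurons or imprinting that were found were described at each age. Mir434, Mir370, Mir376a, Mir382 and Mir409 were not among the members.

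The design allowed for counts. Because the values are FPKM, levels were compared as differences of log2(FPKM + 1) against P21, a scale that understates changes of low features, and no test was run. What 1 alignment is worth was found from low values for 644 of 724 locus lengths at P1, where 97.9% of 5057 values under 200 alignments came out whole within 0.02. The other libraries were sums of 2 to 4 steps, which matched at least 99.9% of their low values. Alignments assume equal signal per step. At P15, where the steps differed most, the total could lie between 127022 and 771757. Intervals are exact binomial (Clopper-Pearson) on the equivalent counts, and intervals of a ratio of members use a normal approximation on the log scale. Simulated data for 5491 features were used to test this: all 7 of 7 libraries gave back their number of steps, the largest error of a total was 0.183%, and between P1 and P21 the interval held the true change for 96% of 100 features made 4-fold higher and 94% of 100 made 4-fold lower. The simulation gave the steps equal signal and drew independent Poisson counts with the steps found in these data. It therefore checks the calculation and does not test these assumptions. Copies made by PCR and reads that match 2 loci were not simulated.

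Alternatives were scaling by the miRNA sum, by the median ratio of miRNAs or by TMM (which trimmed 30% of ratios and 5% of levels at each end), estimated alignments per 1000000 miRNA alignments, pseudocounts of 0.1 and 10, filters at 100 FPKM and at 20 alignments, a 4-fold limit, and leaving out families or ages. Leaving out the reverse-strand members or Mir494, and scaling the steps between ages, were added after the data were seen. Python 3.11.15 with numpy 2.4.6, pandas 2.3.3, scipy 1.17.1 and matplotlib 3.10.9 was used.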

Additional observations from a re-analysis of the deposited data

How the results depend on the processing

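Of 168 alternative values, 109 stayed within the counting error or within 1.5 times of the reported count and the others did not. The alternatives to log2 differences also numbered 109, and 28 of them had the other sign, 14 of these against a reported value beyond its counting error from 0. The log2 difference of the cluster sum from P21 was 0.20, 0.78, 0.50, 0.087, 0.17 and 0.43 from P1 to P15 with scaling to the miRNA total, and 0.46, 0.76, 0.39, 0.23, 0.20 and 0.36 per estimated miRNA alignment. With TMM scaling it was -0.55 at P1, 0.036 at P5, 0.0090 at P7, -0.17 at P10 and 0.28 at P15, whereas scaling by the median of ratios gave -0.50 at P1, -0.22 at P5, -0.31 at P7 and 0.19 at P15. Without Mir494 it was -0.67 at P1, -0.18 at P3 and -0.17 at P5. Without the reverse-strand members it was -0.16 at P3, -0.15 at P10 and -0.20 at P15, and without the mir-376 loci -0.15 at P15. Against P21, the miRNA total shifts all features by 0.63, 0.87, 0.58, 0.65, 0.24 and 0.48 from P1 to P15, which by construction accounts for its turns. The miRNA total includes the Mir124 loci, which were lowest at P1 and highest at P21, and their part in these shifts was not tested.

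The median of the members was 0.32, 0.87, 0.51 and 0.074 from P1 to P7 with the miRNA total, 0.70, 0.80, 0.46 and 0.27 per alignment, and -0.0041 at P7 with TMM. Members at least 2-fold higher at P1 numbered 11 with the miRNA total, 17 per alignment, 3 without the reverse-strand members and 2 at a 4-fold limit, and those lower numbered 4, 3 and, at a 4-fold limit, 3. With the miRNA total 43.6% of all miRNA features were 2-fold higher and 23.6% lower, and per alignment 50.3% and 17.9%. Members highest at P15 numbered 6 with the miRNA total, 19 with TMM and between 12 and 17 with 1 age left out, the latter without P10, and those lowest at P7 12, 3 and between 19 and 25. The shares of all miRNA features under these alternatives are not given here. The share of the cluster in the miRNA alignments was 2.67%, 3.28%, 2.54%, 2.26%, 2.23%, 2.48% and 1.93% from P1 to P21, against the lower shares in FPKM. Pseudocounts and filters changed the sign of 1 value, the median at P3, which was 0.0012 as reported and -0.020 with at least 20 alignments. Members lower at P7 than at P5 numbered 36 as reported and 21 with TMM, against 59.7% and 36.1% of all miRNA features. Those higher at P10 than at P7 numbered 38 and 21, against 52.0% and 34.5%. The Mir379 side differed by -0.60 at P1 without Mir494. No paired analysis was possible because there was 1 library per age. The low depth limits members under 20 alignments, and none of these intervals covers differences between animals.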
